A study of Rattus norvegicus with 4 samples.

Results

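The 10 genes described here are mediators of the first inflammatory response: the interleukin 1 ligands Il1b and Il1a, their antagonist Il1rn and receptor Il1r1, the cytokines Tnf, Il6 and Lif, the feedback inhibitor Socs3, and the inducible enzymes Ptgs2 and Nos2. They were chosen by name, through the array annotation, and all 10 were measured, by 15 of the 43628 probes and among 14878 genes in all. The members Il1a, Tnf, Il6, Lif, Socs3 and Nos2 had 1 probe each, Il1rn, Il1r1 and Ptgs2 had 2, and Il1b had 3.

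The RNA came from striatum, a forebrain nucleus that controls movement, of adult male Wistar rats, 4 in the whole study. In irradiated rats, under pentobarbital anaesthesia, a gamma knife, which converges gamma rays on a small target from outside the head, gave 1 striatum a central maximum of 60 Gy in 30 min through a 4 mm collimator, and tissue was taken after 16 h. Each of the comparisons used 2 dual-colour Agilent arrays with the dyes exchanged. They set irradiated left striatum against left striatum of control rats and un-irradiated right striatum of irradiated rats against right striatum of control rats. How many rats stand behind each RNA, and whether control rats were anaesthetised or put in the frame, the labels do not say. Since the dose had a central maximum, the RNA of the irradiated striatum may mix tissue at different distances from the centre of the beam.

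Interleukin 1 alpha and beta bind the receptor encoded by Il1r1, which with an accessory chain signals through Myd88 and Irak kinases to the transcription factor NF-kappaB, while the product of Il1rn occupies the receptor without signalling. Tnf reaches the same factor through its own receptors. Interleukin 6 and leukaemia inhibitory factor (Lif) signal through the shared chain gp130 (Il6st) and Stat3, whose target Socs3 shuts that signal off. In injured brain, microglia are a main source of interleukin 1 beta and Tnf, and astrocytes and endothelium respond to them, among other ways by inducing Ptgs2 (cyclooxygenase 2, for prostaglandins) and Nos2 (for nitric oxide).

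Because these genes are known to be switched on from their promoters, the DNA around the starts of 3 ligand genes is shown: Il1b and Il6, the members above control on both arrays of the irradiated side once array 2 is sign-reversed, and Tnf, which was not. Each window holds 250 bases before and 50 after the start of the RefSeq gene, on the gene's strand, from RefSeq's GRCr8 assembly. Capitals mark every match, on either strand, to the NF-kappaB consensus (by name), to TATAAA (the TATA box), to TGACGTCA (the cyclic AMP response element), to TGANTCA (AP-1), to TTCNNNGAA (STAT) or to TTNNGNAAT (C/EBP). No marked matches overlap. The windows lie at chr3:137036532-137036831 (minus strand) for Il1b, chr4:5894526-5894825 (minus strand) for Il6 and chr20:3626435-3626734 (plus strand) for Tnf.
Il1b: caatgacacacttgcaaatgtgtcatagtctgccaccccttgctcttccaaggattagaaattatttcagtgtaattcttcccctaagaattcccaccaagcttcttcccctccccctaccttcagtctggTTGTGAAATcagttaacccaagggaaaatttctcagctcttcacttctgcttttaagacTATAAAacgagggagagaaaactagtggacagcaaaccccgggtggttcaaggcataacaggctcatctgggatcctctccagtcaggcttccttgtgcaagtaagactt
Il6: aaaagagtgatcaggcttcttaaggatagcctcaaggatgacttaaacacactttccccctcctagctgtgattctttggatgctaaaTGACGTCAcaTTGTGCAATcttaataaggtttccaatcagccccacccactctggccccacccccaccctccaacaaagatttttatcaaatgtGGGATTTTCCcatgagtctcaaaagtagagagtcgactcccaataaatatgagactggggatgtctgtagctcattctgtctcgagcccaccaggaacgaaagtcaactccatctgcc
Tnf: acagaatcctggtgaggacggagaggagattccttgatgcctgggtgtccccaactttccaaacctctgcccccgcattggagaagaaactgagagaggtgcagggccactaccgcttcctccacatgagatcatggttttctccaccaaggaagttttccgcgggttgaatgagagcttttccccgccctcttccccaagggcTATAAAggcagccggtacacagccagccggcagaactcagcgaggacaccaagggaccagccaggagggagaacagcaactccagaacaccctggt

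The Il6 window held an NF-kappaB match at position -68 from the gene's start, GGGATTTTCC, a C/EBP match at -152, TTGTGCAAT, and a cyclic AMP response element at -162. The Il1b window held a C/EBP match at -119, TTGTGAAAT, and a TATA box at -60. The Tnf window held a TATA box at -46 and none of the other motifs. Of all 33469 promoter windows of this length 7.51% held the NF-kappaB consensus, 12.3% the C/EBP motif, 14.2% TATAAA, 1.83% the cyclic AMP response element, 7.33% the AP-1 motif and 8.87% the STAT motif. Windows were found for 8 members, all but Lif and Nos2. Of these 8 windows 3 held NF-kappaB matches (Il1r1, Il6 and Socs3), 4 C/EBP matches (Il1b, Il1rn, Il6 and Ptgs2), 1 an AP-1 match (Il1a) and 0 a STAT match. A match describes letters in this window and says nothing of binding.

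All values below are log2 of experimental over control RNA, so that 1 is a doubling and 0 no difference. Array 1 of each side carried the experimental RNA in Cy5 (red) and array 2 carried it in Cy3 (green). The distance after ± is that of either array from their mean; it is technical, covers no variation between animals, and with 1 replicate on each side no test can be made. That the deposited values are red over green, so that array 2 has to be sign-reversed, is not stated with them, and every mean, rank and common sign below rests on it. Not reversed, the left means of Il1r1, Il1rn, Ptgs2 and Il1a were 1.01, 0.99, 0.79 and 0.44 and that of Il1b was -0.011. A gene counted as higher or lower when both arrays of a side were past 1.5-fold in the same direction. The table holds ratios alone, so brightness and background are unknown and the level of one gene cannot be set against that of another. In ratios from whole tissue, fewer cells of a type and less RNA per cell cannot be told apart.

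In the irradiated striatum 1 of the 10 members, Il1b, was higher by this rule and 0 were lower, where 1.18% of all genes were higher and 1.03% lower. Il6 was above control on both arrays without passing. Nos2 was slightly below control on both arrays. The other 7 members, Il1a, Il1rn, Il1r1, Tnf, Lif, Socs3 and Ptgs2, were above control on one array and below it on the other. The members' median was 0.11, beside 0.00 for all genes.

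**Figure D1:**
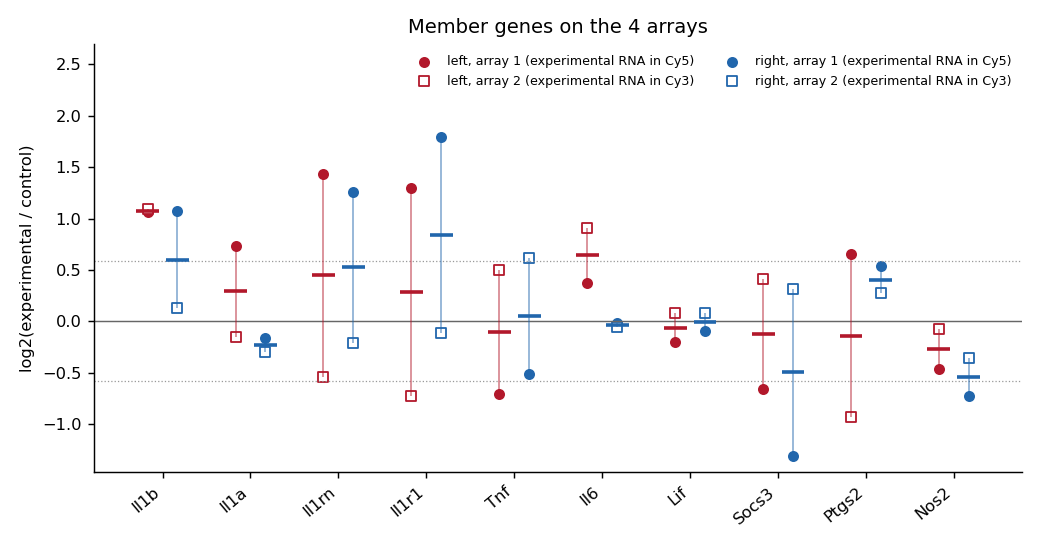
Log2 of experimental over control RNA (vertical axis) for the 10 members, with array 1 as filled circles, array 2 as open squares, a short bar at the mean of both, red for the irradiated left and blue for the un-irradiated right. Dotted lines mark 1.5-fold. The 2 left arrays of Il1b coincide at 1.07 and 1.09, whereas those of Il1rn, Il1r1 and Ptgs2 lie on opposite sides of 0.

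Among the ligands, Il1b read 1.07 and 1.09 on left arrays 1 and 2, a mean of 1.08 ± 0.01 or 2.11-fold, and 0.894% of all genes had a higher mean. The 2 arrays were thus closely alike at the level of the gene, but its 3 probes were not. Probe 1, on the RefSeq mRNA, read 1.85 and 2.41, and probe 3, also on the RefSeq mRNA, read 0.84 and 1.16. Probe 2, on an expressed sequence tag, read 0.51 and -0.31. Both RefSeq mRNA probes passed, so 2 of the 15 member probes were higher on the left, beside 1.47% of all probes. The 3 probes spanned 2.03, against a median span of 0.28 over the 5654 genes with more than 1 probe.

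Il1a, the second interleukin 1 agonist, read 0.73 and -0.15 on the left, a mean of 0.29 ± 0.44. Its arrays disagreed in sign, in contrast to those of Il1b. Il6 read 0.38 and 0.91, a mean of 0.64 ± 0.27 (1.56-fold), and 3.28% of genes had a higher mean. Array 2 alone was past 1.5-fold, and with array 2 not sign-reversed the mean was -0.27. Lif read -0.20 and 0.08, and Tnf read -0.71 on array 1 and 0.50 on array 2. The Tnf mean of -0.10 ± 0.60 therefore joins 2 opposite readings of similar size.

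Of the receptor and inhibitors, Il1r1 read 1.29 and -0.73 on the left (0.28 ± 1.01) and Il1rn 1.43 and -0.54 (0.45 ± 0.99). In both genes 1 of the 2 probes carried most of the distance between arrays. For Il1r1 the second probe read 2.57 and -1.93, while the first read 0.01 and 0.47. For Il1rn the first probe read 2.65 and -0.98, while the second stayed at 0.22 and -0.10. Socs3, the inhibitor of Stat3 signalling, read -0.66 and 0.41 (-0.12 ± 0.53). Its single probe was past 1.5-fold on array 1, downward.

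Of the enzymes, Ptgs2 read 0.65 and -0.93 on the left (-0.14 ± 0.79). Its first probe read 0.80 and -1.93 and its second 0.50 and 0.07, so the probes differed in the sign of their means, -0.56 and 0.28. Nos2 read -0.46 and -0.07 (-0.27 ± 0.19), below control on both arrays and within 1.5-fold.

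**Figure D2:**
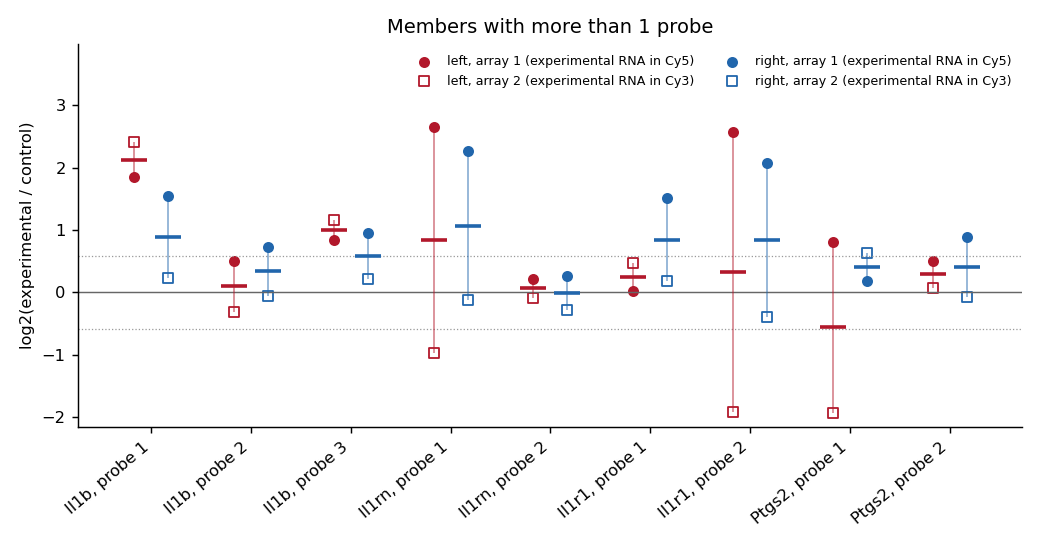
Log2 of experimental over control RNA (vertical axis) for each probe of the 4 members with more than 1 probe, marked as in the plot of members by array. On the left Il1b probes 1 and 3 are past 1.5-fold on both arrays, and Il1rn probe 1, Il1r1 probe 2 and Ptgs2 probe 1 span 0 widely.

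In the un-irradiated striatum 0 of 10 members were higher and 0 lower, where 1.71% of all genes were higher and 1.46% lower. Il1b and Ptgs2 were above control on both arrays, beside 21.3% of genes, and Il1a, Il6 and Nos2 below it on both, beside 21.6%. The members' median was 0.02 and that of all genes -0.01. None of the 15 member probes was higher, beside 2.32% of all probes.

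Il1b read 1.07 and 0.13 on right arrays 1 and 2, a mean of 0.60 ± 0.47. Array 1 matched the left arrays in size and array 2 did not. Its 3 probes kept the order they had on the left, with means of 0.89, 0.33 and 0.58 for probes 1, 2 and 3, and each was lower on array 2 than on array 1. Il1a read -0.16 and -0.30, and Il6, at -0.02 and -0.06, lay at control. Lif was close to 0 at -0.10 and 0.08.

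Tnf read -0.51 and 0.61 on the right, nearly the pair of readings it gave on the left. Il1r1 had the right-hand mean furthest above control among the members, 0.84 ± 0.95 from readings of 1.79 and -0.11. Il1rn read 1.26 and -0.21 (0.53 ± 0.73). Neither gene passed, since array 2 of both was below 0. Socs3 read -1.31 and 0.32 (-0.50 ± 0.81), again with opposite signs.

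Ptgs2 read 0.53 and 0.28 on the right (0.41 ± 0.13), and its 2 probes had means of 0.41 and 0.40. Their arrays were less alike, at 0.18 and 0.63 for probe 1 and 0.89 and -0.08 for probe 2. Nos2 read -0.73 and -0.36 (-0.54 ± 0.18), below control on both right arrays as on both left ones. On the right 92.9% of genes had a higher mean than Nos2, whose mean was -0.18 with array 2 not sign-reversed.

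The 2 arrays of a side were then compared in sign. On the left 7 of 10 members had opposite signs on the 2 arrays, beside 54.0% of all genes, 2 were above 0 on both (23.0% of genes) and 1 below 0 on both (23.0%). On the right 5 of 10 had opposite signs, beside 57.1%. Before array 2 is turned, the mean of both arrays is a ratio of Cy5 over Cy3, called the dye part here. It was 0.99 for Il1rn on the left and 0.73 on the right, and 1.01 and 0.95 for Il1r1, whereas it was -0.60 and -0.56 for Tnf and -0.53 and -0.81 for Socs3. Thus Il1rn and Il1r1 were brighter in Cy5 and Tnf and Socs3 brighter in Cy3 on all 4 arrays under the direction taken here. For Il1r1 this is true only of the average of its 2 probes. Its first probe, at 0.47 and 0.17 on left and right array 2, was brighter in Cy3 on those arrays. If the deposited values were already turned, the dye part and the RNA part exchange places.

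The dye part had the same sign on both sides in 8 of 10 members and in 73.4% of all genes. Across the 10 members the left and right dye parts had a Pearson correlation of 0.84, against 0.53 across all genes. This is a description over genes read on the same 4 arrays, which share dyes and probes. Its median size was 0.49 in the members and 0.17 in all genes on the left, and 0.33 and 0.19 on the right. A dye part past 1.5-fold in either direction was found in 4 of 10 members on the left, beside 12.8% of all genes, and in 3 on the right, beside 17.1%. Il1b on the left, at -0.01, had the smallest dye part among the members on that side. This holds only for the average of its 3 probes, whose left dye parts of -0.28, 0.41 and -0.16 cancelled.

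**Figure D3:**
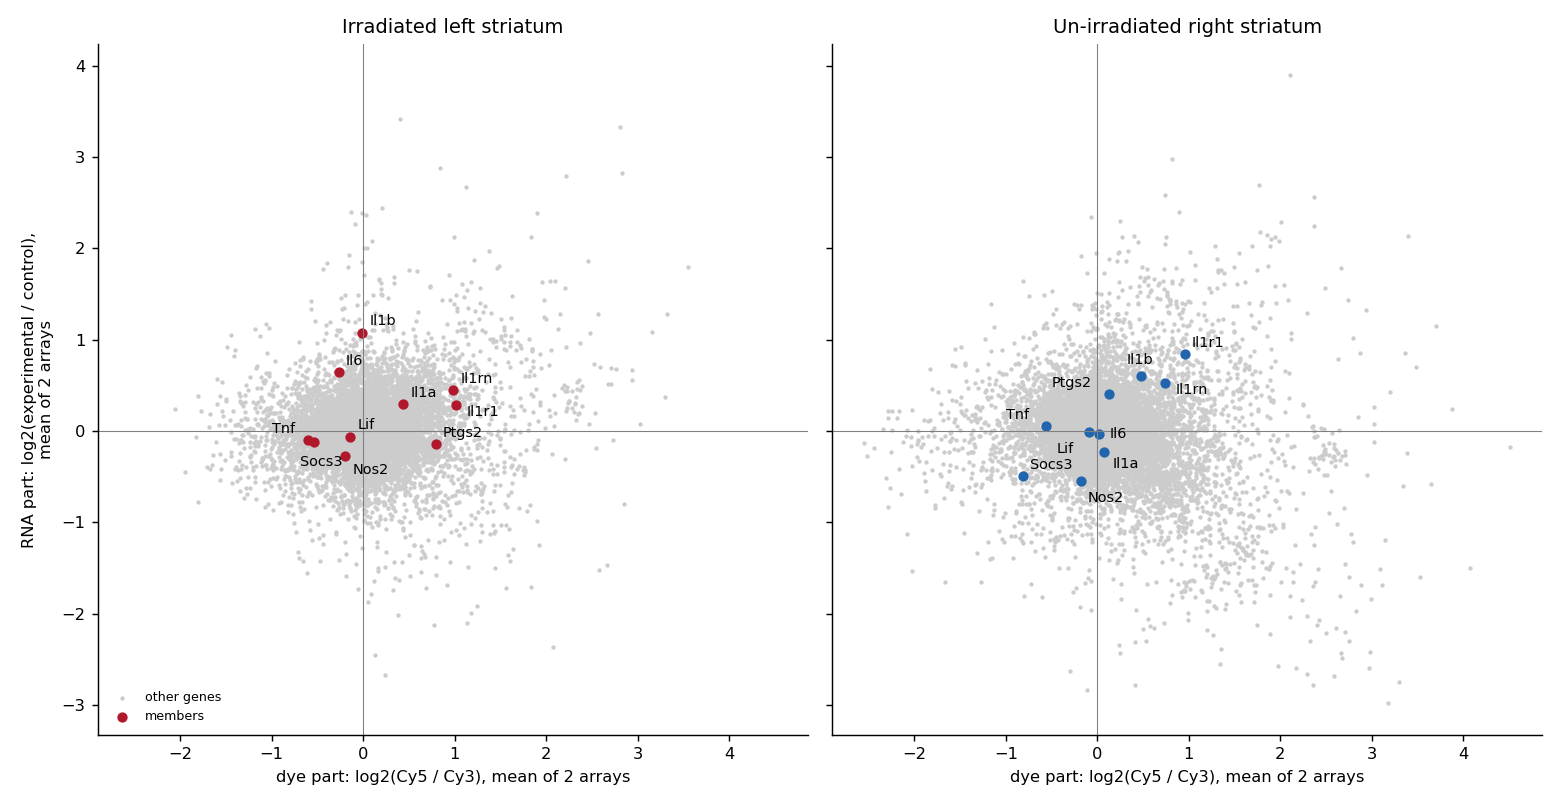
The dye part, log2 of Cy5 over Cy3 (horizontal axis), against the RNA part, log2 of experimental over control (vertical axis), both as means of 2 arrays, for all genes (grey) and the members (coloured). On the left Il1b, as the average of its probes, lies at 1.08 on the vertical axis with a dye part near 0. Il1rn, Il1r1 and Ptgs2 lie far to the right with vertical values between -0.14 and 0.45.

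The sides were then set against each other between arrays of the same dye orientation, in which a dye part common to both sides drops out. Of the 10 members 0 were higher on the left and 0 lower by the 1.5-fold rule, where 2.59% of genes were higher and 2.26% lower. The difference had the same sign in both orientations for 6 members, Il1a, Il1r1, Tnf, Il6, Socs3 and Nos2, or 6 of 10 beside 56.8% of all genes. These differences are between 1 RNA comparison on each side and were not tested.

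Il6 was further above control on the left than on the right by 0.40 and 0.97 in the 2 orientations, a mean of 0.68 ± 0.29. Both left arrays were above control and both right arrays just below it, an arrangement that 3.33% of all genes had. Il1b differed by -0.01 and 0.96 (0.48 ± 0.49). With the experimental RNA in Cy5 it thus read alike on both sides, and with that RNA in Cy3 it read higher on the left. Il1a differed by 0.89 and 0.15.

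Il1r1 was lower on the left than on the right by -0.50 and -0.62 in the 2 orientations (-0.56 ± 0.06), inside the 1.5-fold rule on array 1. This closeness is only in the average of its 2 probes, which differed by -1.504 and 0.295 and by 0.50 and -1.53. Nos2 differed by 0.26 and 0.29 and Tnf by -0.19 and -0.11, small differences with little distance between orientations. Socs3 differed by 0.65 and 0.09. Ptgs2 differed by 0.12 and -1.21, Il1rn by 0.17 and -0.33 and Lif by -0.11 and 0.00, so these 3 had no common sign.

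The wider pathways were read from 7 lists of 207 genes in all, of which 184 were measured. On the left 4 of the 184 were higher and 3 lower, and on the right 4 were higher and 1 lower, with medians of -0.0047 and -0.0080. In either direction together that is 3.80% on the left, where 328 of all 14878 genes passed (1.18% higher and 1.03% lower). On the right it is 2.72%, where 472 of 14878 passed (1.71% higher and 1.46% lower). In the difference between sides 7 were higher on the left and 8 lower, or 8.15% in both directions together. Of all genes 2.59% were higher there and 2.26% lower.

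In the interleukin 1 family 0 of 15 measured ligands and receptors passed on either side. The accessory chain Il1rap, without which Il1r1 does not signal, read 0.18 and -0.60 on the left and 3.51 and 0.02 on the right. One right-hand array thus set its mean of 1.77. Downstream, 2 of 26 genes of interleukin 1 and Toll signalling and the inflammasome were higher on the left and 0 lower, and 0 passed on the right. Irak3, an Irak family member that restrains this pathway, read 1.23 and 0.61 on the left (0.92 ± 0.31), and 0.32 and -0.94 on the right. Its 2 probes had left means of 1.98 and -0.13, so 1 probe carried the value.

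Nlrp3, the sensor of the inflammasome that activates caspase 1 and thereby matures interleukin 1 beta, read 0.62 and 1.15 on the left (0.89 ± 0.26) and 0.56 and 0.01 on the right (0.28 ± 0.27). It was measured by 10 features with 1 accession, whose left means ran from 0.52 to 1.85 with all 10 above 0 and 5 past the rule. On the right the means ran from -0.41 to 0.69, with 8 above 0 and 0 past the rule. Within left array 1 the 10 features had an SD of 0.82 and within left array 2 one of 0.17. The median over features did not pass. Over the 8 genes with 10 features of 1 accession, Nlrp3 among them, the SD between features of the left mean had a median of 0.08. It ran from 0.02 to 0.42 and was 0.38 for Nlrp3. Within left array 1 and left array 2 the median SD over these genes was 0.17 and 0.13. Whether such features carry the same probe sequence is not known from the labels.

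Of 23 genes of Tnf receptors and signalling 0 passed on either side. The Tnf receptor Tnfrsf1a read 0.70 and 0.50 on the left (0.60 ± 0.10) and -0.15 and -0.37 on the right. Its difference between sides, 0.85 and 0.87, passed the rule. Its RefSeq mRNA probe was past the rule on the left at 1.07, while its other probe, on an expressed sequence tag, had a mean of 0.13 there. On the right the RefSeq mRNA probe was above control at 0.44 and the other below it at -0.95, so the right-hand sign of the gene rests on the latter. Traf1, an adaptor of Tnf receptor complexes, differed by 0.85 and 0.95 between sides, though its left arrays read 0.07 and 1.28. The second receptor, Tnfrsf1b, read 1.14 and 0.48 on the left (0.81 ± 0.33).

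Among 28 genes of the interleukin 6 family, Janus kinases, Stat factors and Socs proteins, 1 was higher on the left, and 1 was higher and 1 lower on the right. Stat3 itself read 0.62 and 0.60 on the left (0.61 ± 0.01) and 0.28 and 0.11 on the right. Its 3 probes had left means of 0.69, 0.73 and 0.42, none past the rule by itself. The median over them did not pass. On the right Lifr, the receptor of Lif, read 0.87 and 0.65 (0.76 ± 0.11), and the oncostatin M receptor Osmr read -1.07 and -0.70 (-0.88 ± 0.19). The shared chain Il6st read 0.97 and -0.54 on the left and Il6r 0.04 and -0.32. Tnfrsf1b, Il6st and Il6r were named here as receptors of the members after their values were seen.

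Of 29 genes of prostaglandin and leukotriene synthesis and reception 1 was lower on the left and 1 higher on the right. Ptgs1, the constitutive cyclooxygenase and in brain largely a microglial gene, read -0.97 and -1.05 on the left (-1.01 ± 0.04) and -0.16 and -0.18 on the right. It was thus lower on the irradiated side with close arrays, where its inducible relative Ptgs2 gave readings of opposite sign. Ptgdr, a prostaglandin D2 receptor, read 0.69 and 1.32 on the right and -0.39 and -2.04 on the left. Ptgds, the prostaglandin D synthase, differed between sides by -0.86 and -0.89, but its RefSeq mRNA probe had a mean of 1.35 on the right and its other probe -0.13.

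Of 22 genes of nitric oxide synthesis and handling 0 passed on the left and 1 was higher on the right. Arg1, the arginase that competes with nitric oxide synthases for arginine, read 1.05 and 0.65 on the right (0.85 ± 0.20) and 0.55 and 0.34 on the left. Of 41 other cytokines and cytokine receptors 1 was higher and 2 lower on the left, and 1 was higher on the right. Csf1, the growth factor of microglia and macrophages, read 0.88 and 0.87 on the left (0.87 ± 0.01) and 0.56 and 0.43 on the right, and both its probes passed on the left, at 0.81 and 0.93. The receptor Il7r fell by 0.84 (± 0.22) on the left. Il12a, a subunit of interleukin 12, fell by 0.81 (± 0.05). On the right Il5, a cytokine of eosinophils, read 0.64 and 0.60.

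Several pathway genes passed in the difference between sides without passing on either side. The DNA sensor Aim2 differed by 1.47 and 1.40, although its arrays read 1.17 and -1.03 on the left and -0.31 and -2.43 on the right, with opposite signs on the left. Il21, a T cell cytokine, differed by 2.99 and 0.99 from left readings of 2.59 and -1.92. The lipoxygenase Alox12 differed by 1.74 and 0.59. Il15, a growth factor of natural killer cells, differed by -0.59 and -1.24 and Irak1 by -1.43 and -0.66. For Aim2 and Il21 the left arrays thus disagreed in sign while the difference between sides did not.

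**Figure D4:**
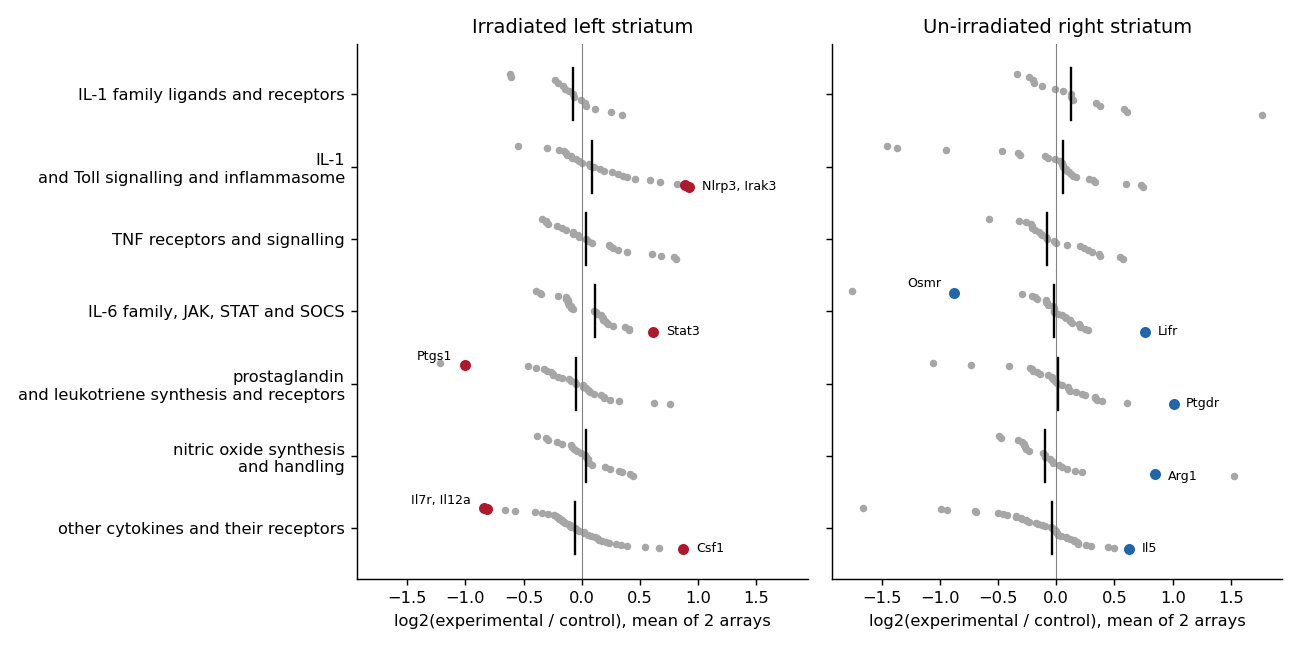
Log2 of experimental over control RNA (horizontal axis, mean of 2 arrays) for each measured gene of the 7 pathway lists, with genes past 1.5-fold on both arrays coloured and named and the list's median as a black bar. All 14 medians lie between -0.10 and 0.12, and 0 to 3 genes of a list pass on a side.

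Markers of cells that make these mediators were read beside them. For the counts below, 1.18% of all genes were higher and 1.03% lower on the left. On the right these shares were 1.71% and 1.46%. Of 18 microglia markers 0 were higher and 3 lower on the left (median -0.32), namely P2ry12 at -2.67 ± 0.24, C1qa at -0.79 ± 0.09 and Ctss at -0.79 ± 0.09, while Il1b was above control there. On the right 1 was lower (median -0.18), P2ry12 at -1.05 ± 0.08. C1qb and C1qc of this list were above control on both right arrays, at 0.88 and 0.38 and at 0.21 and 0.27. The highest left mean in the list was 0.22, for Itgam, from readings of -0.02 and 0.47. Of 22 markers of blood leukocytes Cd3e was higher on the left, at 0.83 ± 0.12 (median -0.11). Cd3d and Cd3g of the same list were below control on both left arrays, with means of -0.14 and -0.21. On the right Cd4 was higher, at 2.69 ± 1.76 from readings of 4.46 and 0.93, and Cxcr2 lower, at -1.04 ± 0.27 (median 0.02). Astrocyte, endothelial and striatal projection neuron lists had left medians of -0.32, -0.20 and -0.36 and right medians of -0.08, -0.09 and -0.65. Of 16 astrocyte markers 1 was lower on the left and 0 passed on the right, and 0 of 17 endothelial markers passed on either side. Of 19 striatal projection neuron markers 2 were lower on the left and 7 on the right, and 0 were higher. Meningeal markers, among them Ptgds, had medians of -0.35 and 0.32 and cortex markers of -0.06 and 0.53. Of 16 meningeal markers 3 were lower on the left and 4 higher on the right. Of 11 cortex markers 1 was lower on the left and 3 were higher on the right. Summed marker levels cannot be had from ratios, and the part of cell composition in the members' values was not tested.

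Finally, the genes whose 4 array values lay nearest those of Il1b were sought among 14868 others, by Euclidean distance on the log2 scale over the 4 arrays. They were Capg, an actin-capping protein of macrophages (distance 0.36), Birc3, an inhibitor of apoptosis (0.36), the olfactory receptor Or1f21c (0.43), the trace amine receptor Taar6 (0.44) and C1r, a complement protease (0.53). Capg read 0.97 and 0.88 on the left and 1.02 and 0.40 on the right, beside 1.07 and 1.09, and 1.07 and 0.13, for Il1b. For Il6, second among the members by left mean as long as array 2 is sign-reversed, the nearest were Mep1b (0.18), RT1-CE7 (0.25), the inflammatory caspase Casp4 (0.25), Spn (0.31) and the interferon-induced Oasl2 (0.31). Likeness over 4 arrays of 2 RNA pairs is a description.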

How the data were processed

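Total RNA was labelled with Cy3 and Cy5 and hybridised to 4 Agilent rat arrays, 2 with exchanged dyes for each side. The labels give the arrays of one side a single replicate number, so the pair counts as 1 replicate, a dye exchange on the same RNAs. The authors processed the scans with Agilent Feature Extraction 8.1, per the submitters' processing notes; its settings are not known. Values in the deposited table were taken to be log10 of red over green, as Feature Extraction reports, and multiplied by 3.32 to give log2; neither their base nor direction nor centring is stated. Column medians (log10) were 0.00418 (left array 1), 0.00444 (left array 2), 0.00832 (right array 1) and 0.0111 (right array 2). Before turning, paired arrays correlated at a Pearson r of 0.743 (left) and 0.666 (right) and a Spearman rho of 0.233 and 0.260. Over 5654 genes, the first 2 probes of a gene correlated at 0.163 (left) and 0.0865 (right) when array 1 minus array 2 was halved and at 0.0380 and 0.0411 when their sum was. The values were taken as not yet turned, and array 2 was sign-reversed.

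Probes were named from GEO's platform annotation, with symbols updated by Entrez identifier from RefSeq (GRCr8). Of 43628 features 23535 had 1 gene, 48 several and 20045 none. A gene's value is the mean over its probes. Genes named from a pathway list are those past 1.5-fold on both arrays of a side or in the difference between sides, at most 8 a list, and in the text only those a sentence needs, with receptors added as stated. Members, lists and rules were chosen with earlier results of these data known. The rule was tested on simulated dye exchanges with known changes. All probes of a simulated gene shared the same change, so that check says nothing of real genes whose probes disagree. Simulated dye parts were nearly all within 1.5-fold, so it also says nothing of genes with larger ones. Among the real genes 12.8% on the left and 17.1% on the right had a dye part past 1.5-fold. Alternatives were other summaries of probes, centring, single arrays, unturned values and other folds. Python 3.11.15, pandas 2.3.3 and numpy 2.4.6 were used. With 1 replicate on each side, variation between animals cannot be estimated, and more arrays of the same RNAs would not change that.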

Additional observations from a re-analysis of the deposited data

Results flagged for a closer look

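Some genes among the members and pathway lists were on one side of control on both left arrays and on the other side on both right arrays; none of these differences was tested. Among the members this was Il6, with a left minus right difference of 0.68 and right readings of -0.02 and -0.06. Among the pathway genes the differences were 0.86 for Tnfrsf1a, 1.11 for Osmr, -1.04 for Irak1, -2.22 for Ptgdr, -0.87 for Ptgds and -1.83 for Gucy1a2. The right-hand sign of Tnfrsf1a rests on 1 of its 2 probes, at -0.95, the other being at 0.44. Left array 2 of Osmr read 0.00, so its left sign rests on 1 array. The right mean of Gucy1a2 rests on 1 of its 2 probes, which read 5.40 on right array 1 and 0.32 on right array 2. Irak1, an interleukin 1 receptor kinase, had 2 probes on expressed sequence tags past the rule on the right, at 1.37 and 0.92, and a RefSeq mRNA probe at -0.05.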

How the results depend on the processing

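No paired analysis was possible because each side holds 1 replicate. Il1b on the left passed with the median over probes, RefSeq mRNA probes only (1.57), centred arrays and a 2-fold rule. It also passed on either array alone, which the rule already requires of any gene that passes. By the probe with the largest mean (2.13) it passed too, but that probe is picked by its own value. The Il1b mean was -0.011 with array 2 not sign-reversed. It was 0.32, no longer passing, with the deposited values read as log2, a setting chosen after seeing the data. Members past the rule on the left numbered 2 (Il1r1 and Ptgs2) with array 2 not reversed, 7 on array 1 alone, 4 on array 2 alone, 2 (Il1b and Il6) under a looser fold rule and 0 read as log2. On the right they numbered 5 on array 1 alone, 1 (Tnf) on array 2 alone and 1 (Nos2) under the looser rule, and in the difference between sides 2, 4 and 2. For all genes, neither the looser rule nor the difference between sides under these settings was counted. Those member counts thus have no share beside them and cannot be read as particular to the members. Pathway genes past the rule, left and right, numbered 11 and 13 by the probe with the largest mean, 16 and 12 not reversed, 45 and 41 on array 1, 41 and 46 on array 2, and 0 and 0 at 2-fold and read as log2. Of all genes, 564 and 831 passed by that probe, 849 and 1109 not reversed, 2904 and 3079 on array 1, 2412 and 3601 on array 2, 77 and 131 at 2-fold and 12 and 8 read as log2. Of all probes, 4258 and 5085 passed not reversed, 11300 and 11326 on array 1, 9315 and 13054 on array 2, 279 and 516 at 2-fold and 24 and 43 read as log2. A single array holds the dye part, and a wrong log base changes sizes but no direction. Of the other member values under these settings 17 passed where they had not, 15 on a single array and 2 with array 2 not reversed. Those that passed against the direction of the mean were Il1r1 on left array 2 (-0.73) and Ptgs2 on left array 1 (0.65) and on the left with array 2 not reversed (0.79). Apart from single arrays, 11 more moved beyond the distance between arrays, 6 with array 2 not reversed and 5 read as log2. Spot brightness is unknown, so dim spots could not be set apart.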
